A study of Mus musculus with 6 samples.

Results

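Interferon-inducible GTPases were higher in hematopoietic progenitor cultures transduced with EVI1 than in cultures transduced with a control vector. The genes described are 10 members of the guanylate-binding protein (GBP) and immunity-related GTPase (IRG) families, namely Gbp2, Gbp3, Gbp5, Gbp6, Gbp7, Gbp11, Irgm1, Irgm2, Igtp and Iigp1. They were chosen by name, and every probe set annotated to one of them was taken. That gave 9 of the 34760 probe sets on the array. A probe set is a group of probes read as 1 value. The 6 genes Gbp3, Gbp5, Gbp7, Gbp11, Irgm1 and Iigp1 had a probe set of their own and are 6 of the 19937 genes measured. The other 4 (Gbp2, Gbp6, Irgm2 and Igtp) were read only through 3 probe sets annotated to several genes, so no value of theirs is theirs alone.

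The cells were lineage-depleted (Lin-) mouse hematopoietic cells, labelled as hematopoietic progenitors, from C57BL6 mice. They carried the Rosa26rtTA transgene, which makes a transactivator that works in the presence of doxycycline. The EVI1 group (3 arrays) received a lentiviral vector with a tetracycline-responsive promoter, EVI1, an IRES and EGFP; EVI1 is a zinc finger transcription factor encoded in the Mecom locus. The EGFP group (3 arrays) received the same vector type with EGFP alone. Both groups were grown in serum-free medium with stem cell factor at 50 ng/ml, interleukin 3 at 20 ng/ml, Flt3 ligand at 50 ng/ml and interleukin 11 at 50 ng/ml. Both were transduced 24 h after isolation, and both were given doxycycline at 1 µg/ml 24 h later. EGFP-positive cells were sorted, and RNA was taken 20 h after doxycycline by one of the study's descriptions and 24 h after it by another. The labels do not say whether replicates were separate animals, cultures or transductions, so each p-value measures only the spread between these arrays. No untransduced or interferon-treated cells are among the arrays.

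Values are log2 intensities normalised by RMA, and array medians lay between 7.24 and 7.31. Arrays of the same group correlated across genes at r = 0.976 to 0.990, against 0.942 to 0.959 between groups. Mecom, the locus of the transduced gene, was at 6.29, 6.18 and 6.49 in the EVI1 arrays and 6.39, 7.53 and 6.86 in the EGFP arrays. Its difference of -0.60 ± 0.26 (SE) did not pass (adjusted p = 0.166 by limma), and without EGFP replicate 1 it was -0.87 (adjusted p = 0.0306), lower in the arrays labelled EVI1. Whether its probes read the transduced sequence was not tested, so every direction given here is that of the labels. As a guide to dim signal, the 95th percentile of olfactory receptor genes, which blood cells are not known to use widely, was 6.96, 6.92 and 7.09 in the EVI1 arrays and 7.05, 6.88 and 7.04 in the EGFP arrays. Mecom lay under that level on all 3 EVI1 arrays and on 2 of the 3 EGFP arrays, so the direction of its difference is uncertain. Progenitor markers were all above the olfactory receptor level in both groups. Of 12 measured 7 fell, 2 rose and 3 did not pass, where 9.18% of all genes fell and 9.06% rose. Those that fell included Cd34, a surface antigen of progenitors (-2.45 ± 0.20), and Mpo, myeloperoxidase (-2.55 ± 0.26). Myb, a progenitor transcription factor, also fell (-1.61 ± 0.16). The 2 that rose were Ptprc (0.76 ± 0.12) and Spi1 (0.73 ± 0.15). Tal1 (0.47 ± 0.14) did not pass, but passed as higher by limma with the replicate number as a block (adjusted p = 0.0277).

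Both families are part of cell-autonomous immunity in mice. Interferon gamma acts through its receptor and the kinases Jak1 and Jak2 on genes with GAS elements, while type I interferons act through Jak1 and Tyk2 on genes with ISRE elements, to which Stat2 and Irf9 are recruited. Irf1, itself induced by interferon, also binds ISRE elements and drives a second wave of transcription. The GBPs are large GTPases that assemble on bacteria and on the membranes of pathogen vacuoles and promote inflammasome activation. The IRGs divide into effectors such as Iigp1 (Irga6), which coat and disrupt the vacuole of Toxoplasma gondii, and regulators such as Irgm1, Irgm2 and Igtp (Irgm3), which keep the effectors off the cell's own membranes. Irgm1 has also been linked to the maintenance of mouse hematopoietic stem cells under interferon.

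The sequences just before the transcription starts of 7 members are shown because every probe set annotated to them rose and the sequences hold letters that resemble the interferon elements; Gbp2, Igtp and Irgm2 were read only in shared probe sets. They are from RefSeq (GRCm38.p6), 5′ to 3′ on the strand of the gene. Windows from 250 bases before to 50 bases after each annotated start were used, and matches were sought in the 250 bases before the start. The letters searched were GAAANNGAAA on both strands (ISRE-like; matches on the other strand appear as TTTC, any 2 bases and TTTC) and TTCNNNGAA (GAS-like, which reads the same on both strands). Capitals mark these matches and lower case the bases around them. In Gbp3 and Irgm1 a pair of ISRE-like matches overlap, and the capitals run through both. The stretches lie at chr3:142496684-142496905 (+) for Gbp5, chr3:142530215-142530307 (+) for Gbp7, chr3:142559984-142560015 (+) for Gbp3, chr3:142620589-142620628 (+) for Gbp2, chr11:48871421-48871465 (-) for Irgm1, chr11:58199496-58199546 (+) for Igtp and chr11:58214887-58214937 (+) for Irgm2.
Gbp5: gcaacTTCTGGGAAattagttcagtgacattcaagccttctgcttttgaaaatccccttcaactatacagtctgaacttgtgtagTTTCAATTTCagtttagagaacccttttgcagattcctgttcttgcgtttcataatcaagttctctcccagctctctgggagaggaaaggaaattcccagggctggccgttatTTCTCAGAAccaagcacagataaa
Gbp7: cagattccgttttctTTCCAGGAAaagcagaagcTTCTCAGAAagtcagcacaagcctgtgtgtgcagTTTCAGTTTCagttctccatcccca
Gbp3: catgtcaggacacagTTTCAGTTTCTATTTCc
Gbp2: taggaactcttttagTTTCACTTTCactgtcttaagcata
Irgm1: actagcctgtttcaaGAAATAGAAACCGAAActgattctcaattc
Igtp: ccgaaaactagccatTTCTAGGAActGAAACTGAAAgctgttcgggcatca
Irgm2: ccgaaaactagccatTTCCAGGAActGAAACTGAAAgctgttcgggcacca

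All 7 members with a window held the ISRE-like letters at one of their annotated starts, and 4 of them (Gbp5, Gbp7, Igtp and Irgm2) held the GAS-like letters as well. Among 32851 promoter windows of the same length, 978 (2.98%) held the ISRE-like letters, 2306 (7.02%) the GAS-like letters and 109 (0.332%) both. Gbp3 has a second annotated start, whose window held neither. The ISRE-like match nearest to the start began 39 bases before it in Gbp3, 59 bases in Gbp2, 53 bases in Gbp7 and 165 bases in Gbp5. In the IRG genes it lay 24 bases before the start of Irgm1, 34 bases before that of Igtp and 64 bases before that of Irgm2. Igtp and Irgm2 have nearly the same sequence there, with 49 of 51 bases alike. In both, the GAS-like letters begin 11 bases before the ISRE-like ones, a spacing found in 5 of the windows (0.0152%); these belong to Igtp, Irgm2, the IRG genes Tgtp1 and Tgtp2, and Gm12185, all on chromosome 11. That spacing was looked for after the matches had been seen. A match is a description of letters, not a site at which a factor was shown to bind or a cause of the values. No promoter window of Gbp6, Gbp11 or Iigp1 was used here.

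The 4 GBP genes with probe sets of their own were all higher in the EVI1 arrays. Gbp5, which promotes assembly of the Nlrp3 inflammasome in mouse macrophages, was at 10.07, 9.36 and 10.43 in EVI1 replicates 1, 2 and 3, against 6.82, 7.01 and 6.91 in EGFP replicates 1, 2 and 3. Its groups were parted by 2.35 log2 units, and in 2 of the 3 EGFP arrays it lay under the olfactory receptor level. It averaged 9.96 ± 0.54 in the EVI1 arrays and 6.91 ± 0.098 in the EGFP arrays (SD, n = 3 each), a log2 fold change of 3.04 ± 0.24 (SE), or 8.24-fold (95% interval of the log2 value 2.49 to 3.60; limma adjusted p = 0.000201). Gbp11 was at 9.44, 8.58 and 9.31 in the EVI1 arrays and 6.72, 5.60 and 6.77 in the EGFP arrays. RefSeq lists Gbp11 as a transcribed pseudogene, and all 3 EGFP values lay under the olfactory receptor level while all 3 EVI1 values lay above it. The log2 fold change was 2.75 ± 0.34, or 6.72-fold (interval 1.97 to 3.52; adjusted p = 0.00113).

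Gbp3 stood at 10.05, 9.19 and 10.66 in the EVI1 arrays and at 7.74, 7.58 and 7.91 in the EGFP arrays. The EGFP values lay close together and the EVI1 values were spread over more than 1 log2 unit, without overlap. Gbp3 averaged 9.97 ± 0.74 in the EVI1 arrays and 7.74 ± 0.16 in the EGFP arrays, a log2 fold change of 2.23 ± 0.32, or 4.68-fold (interval 1.49 to 2.96; adjusted p = 0.00230). Gbp7, which in mice also aids assembly of the phagocyte oxidase, was at 10.82, 10.11 and 11.13 in the EVI1 arrays and 9.18, 8.28 and 9.05 in the EGFP arrays. Here replicate 2 was the lowest array of both groups, and the lowest EVI1 value stood 0.93 above the highest EGFP value. The log2 fold change of Gbp7 was 1.85 ± 0.30, or 3.61-fold (interval 1.15 to 2.55; adjusted p = 0.00421), with means of 10.69 ± 0.53 and 8.84 ± 0.49 in the EVI1 and EGFP arrays.

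Among the IRG genes, the effector Iigp1 and the regulator Irgm1 were both higher in the EVI1 arrays. Iigp1 was at 8.81, 7.62 and 9.68 in the EVI1 arrays and 5.17, 5.17 and 5.73 in the EGFP arrays. Every EGFP value lay under the olfactory receptor level and every EVI1 value above it. The log2 fold change of Iigp1 was 3.35 ± 0.45, or 10.2-fold (interval 2.32 to 4.37; adjusted p = 0.00165); with values under the olfactory receptor level raised to it, the log2 fold change was 1.71 (adjusted p = 0.0193), so the size of this rise is uncertain. Irgm1 was at 10.27, 9.59 and 10.66 in the EVI1 arrays and 8.90, 8.68 and 8.88 in the EGFP arrays. The groups did not overlap, and the gap between them was 0.69. It averaged 10.17 ± 0.54 in the EVI1 arrays and 8.82 ± 0.12 in the EGFP arrays, a log2 fold change of 1.35 ± 0.24, or 2.56-fold (interval 0.80 to 1.91; adjusted p = 0.00618).

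The remaining members were read through shared probe sets, which were tested in the same model over all 34760 probe sets. The probe set annotated to Gbp2 and Gbp2b, whose first gene encodes a GBP needed for control of Toxoplasma gondii in mice, was at 11.30, 10.73 and 11.63 in the EVI1 arrays and 8.06, 7.86 and 7.68 in the EGFP arrays. Its gap of 2.68 between the groups was larger than the range within either group. The log2 fold change was 3.36 ± 0.24, or 10.2-fold (interval 2.78 to 3.94; adjusted p = 0.00192 over probe sets). Gbp2b also has a probe set of its own, which lay under the olfactory receptor level on all 6 arrays (6.86, 6.67 and 6.94 in the EVI1 arrays, 6.75, 6.18 and 6.50 in the EGFP arrays) and did not pass the test (0.35 ± 0.16, adjusted p = 0.197).

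The probe set of the regulators Irgm2 and Igtp was at 11.37, 10.73 and 11.64 in the EVI1 arrays and 8.96, 9.15 and 8.87 in the EGFP arrays. It did not overlap between the groups, with a gap of 1.58 and a log2 fold change of 2.26 ± 0.24, or 4.78-fold (interval 1.68 to 2.83; adjusted p = 0.00476 over probe sets). Gbp6 was covered by a probe set annotated to 6 genes, Gbp4, Gbp6, Gbp8, Gbp9, Gbp10 and Gbp11. It was at 10.41, 9.55 and 10.93 in the EVI1 arrays and 6.80, 7.68 and 6.93 in the EGFP arrays, again without overlap, and in 2 EGFP arrays it lay under the olfactory receptor level. Its log2 fold change was 3.16 ± 0.39, or 8.92-fold (interval 2.21 to 4.10; adjusted p = 0.00733 over probe sets). How far probes of 1 family member bind transcripts of another was not tested.

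**Figure D1:**
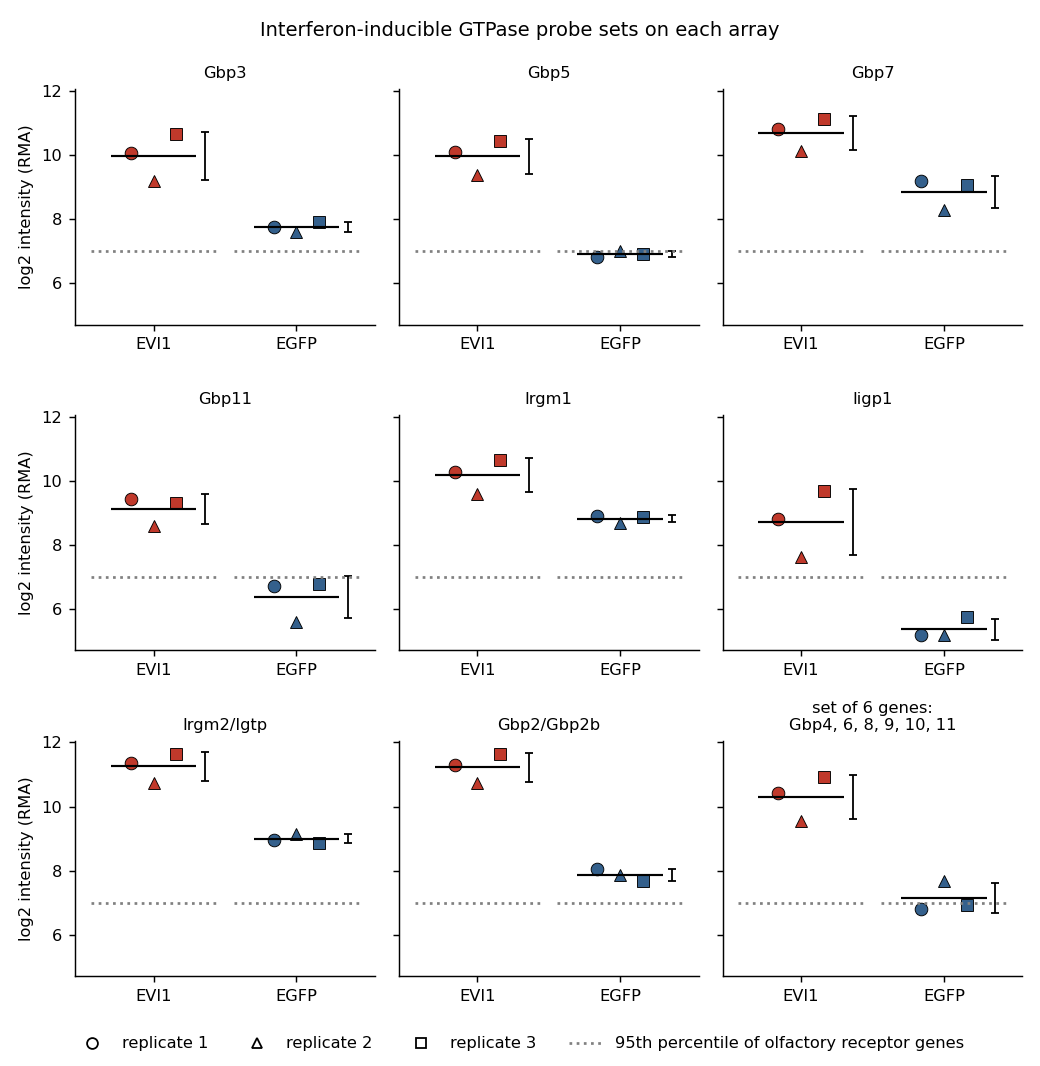
Log2 intensity (vertical axis) of the 9 probe sets of the GTPase genes on each array, 1 panel a probe set, with the 3 EVI1 arrays on the left and the 3 EGFP arrays on the right; lines are group means, bars the SD, and dotted lines mark the olfactory receptor level. The groups do not overlap in any panel, and EVI1 replicate 2 is the lowest EVI1 array in all 9.

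Of the 6 members with probe sets of their own 6 rose, where 9.06% of all genes rose and 9.18% fell, and the 3 shared probe sets all rose, where 4.12% of all probe sets did. All EVI1 values lay above all EGFP values for these 6 genes and for the 9 probe sets, as they did for 16.1% of all genes and 12.7% of all probe sets. The median log2 fold change was 2.49 over the 6 genes, against 0.0060 over all genes and 0.78 over the genes that rose. By log2 fold change, Gbp3 ranked 99, Gbp7 164 and Irgm1 320 among the 19937 genes; no rank is given for the members with EGFP values under the olfactory receptor level. With such values raised to that level, the log2 fold change was 2.92 for Gbp5, 2.12 for Gbp11, 1.71 for Iigp1 and 3.04 for the 6-gene probe set. Differences in size between members were not tested. The 6 genes and 3 shared probe sets passed in every alternative setting that could test them. In RNA from bulk cells, more cells that use a gene and more RNA of it per cell cannot be told apart.

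**Figure D2:**
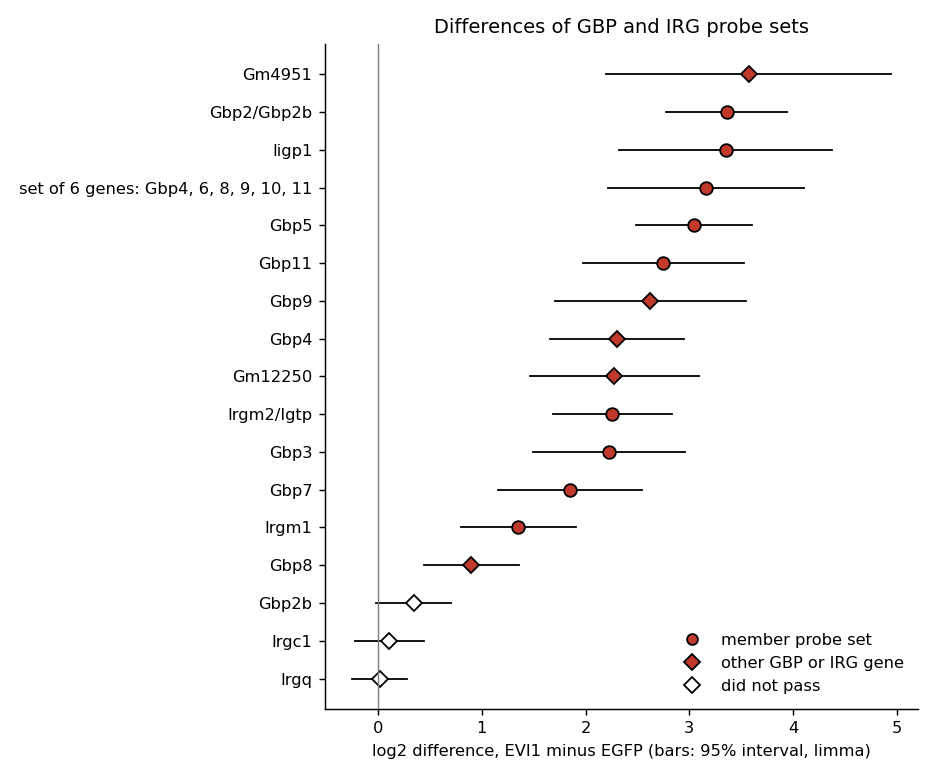
Log2 difference, EVI1 minus EGFP (horizontal axis), of the GTPase probe sets and of the other measured GBP and IRG genes, with 95% intervals from limma. The 9 probe sets of the members have differences from 1.35 for Irgm1 to 3.36 for Gbp2/Gbp2b with intervals above 0, and the family genes Gbp2b, Irgc1 and Irgq have intervals that include 0.

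The response varied between the EVI1 arrays. EVI1 replicate 2 was the lowest EVI1 array in 9 of 9 probe sets, where it was lowest for 36.8% of all genes, and EVI1 replicate 3 was the highest in 8 of 9, the exception being Gbp11. Replicate 2 fell short of the mean of EVI1 replicates 1 and 3 by a median of -0.87 over the 9 probe sets (range -1.62 for Iigp1 to -0.74 for Gbp2/Gbp2b). Over the genes that rose the same median was 0.029. All 9 probe sets were short by at least 0.5, as were 1.82% of all genes and 4.32% of the genes that rose. Even so, the lowest EVI1 array stood above every EGFP array in each probe set.

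EGFP replicate 2 was the lowest EGFP array in 4 of 9 probe sets, where it was lowest for 40.9% of all genes. Gbp7 and Gbp11 were low in both replicates numbered 2, so their difference between same-numbered arrays did not shrink there (1.64, 1.83 and 2.09 for Gbp7, and 2.72, 2.98 and 2.55 for Gbp11, in replicates 1, 2 and 3). In the other 7 probe sets the difference was smallest in replicate 2. For Iigp1 it was 3.64, 2.45 and 3.95, and for Gbp3 2.31, 1.62 and 2.76. The median difference over the 9 probe sets was 2.72, 1.87 and 2.77. The SD among EVI1 arrays had a median of 0.54 over the 9 probe sets, against 0.19 among EGFP arrays. Over all genes these medians were 0.13 and 0.16. The EVI1 range exceeded the EGFP range in 8 of 9, again with Gbp11 as the exception. For the counts of 7 and 8 probe sets, the shares over all genes were not worked out.

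**Figure D3:**
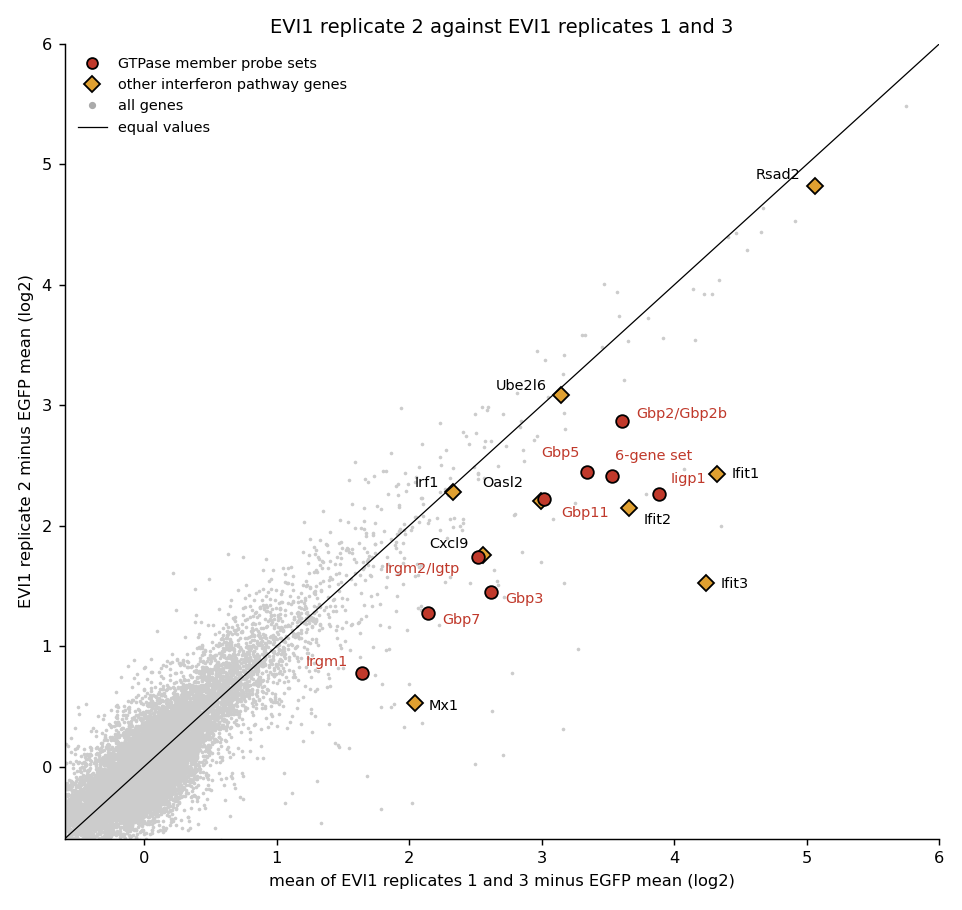
Difference from the EGFP mean (log2) in EVI1 replicate 2 (vertical axis) against the mean of EVI1 replicates 1 and 3 (horizontal axis), for all genes within the axes (grey), the GTPase probe sets (circles) and other interferon pathway genes (diamonds); the line marks equal values. The GTPases lie under the line by 0.74 to 1.62; Ifit1, Ifit2, Ifit3, Oasl2, Mx1 and Cxcl9 lie under it as well, while Rsad2, Irf1 and Ube2l6 lie close to it.

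Other genes of the 2 families rose as well, but not all of them. Of 15 further GBP and IRG genes 8 had a probe set of their own, of which 5 rose and 3 did not pass, with a median of 1.59. The share of all genes that rose was 9.06%. Gbp4 was at 8.65, 7.88 and 9.12 in the EVI1 arrays and 6.19, 6.08 and 6.46 in the EGFP arrays (2.30 ± 0.28, adjusted p = 0.00110). All 3 EGFP values of Gbp4 lay under the olfactory receptor level. Gbp9 was at 10.35, 8.72 and 10.39 in the EVI1 arrays and 7.36, 7.05 and 7.19 in the EGFP arrays (2.62 ± 0.40, adjusted p = 0.00305). Neither overlapped between the groups. Gm12250 (Irgb10), an IRG that in mice helps to free bacterial ligands for the inflammasome, was at 9.96, 8.98 and 10.62 in the EVI1 arrays and 7.69, 7.36 and 7.68 in the EGFP arrays (2.28 ± 0.35, adjusted p = 0.00328). Gm4951 (Ifgga2) was at 10.68, 8.55 and 11.14 in the EVI1 arrays and 6.19, 6.37 and 7.11 in the EGFP arrays (3.57 ± 0.60, adjusted p = 0.00465), and its EVI1 replicate 2 was again far below the others. On 2 EGFP arrays Gm4951 lay under the olfactory receptor level.

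Gbp8 rose least of the 5, with 7.96, 7.60 and 7.86 in the EVI1 arrays and 6.77, 7.35 and 6.60 in the EGFP arrays (0.90 ± 0.20, adjusted p = 0.0154). On 2 EGFP arrays it lay under the olfactory receptor level. It did not pass without EVI1 replicate 1 (adjusted p = 0.0562), EVI1 replicate 3 (0.0692) or EGFP replicate 3 (0.0555), nor when tested over all probe sets (0.0556). Irgc1, an IRG gene of the testis, differed by 0.11 ± 0.14 (adjusted p = 0.727), and Irgq, a divergent relative, by 0.017 ± 0.12 (adjusted p = 0.957). The IRG effectors Tgtp1 and Tgtp2 share 2 probe sets. One rose, at 11.79, 10.95 and 12.43 in the EVI1 arrays and 9.79, 9.80 and 10.33 in the EGFP arrays (1.75 ± 0.38, adjusted p = 0.0397 over probe sets). The other, at 10.47, 9.03 and 10.74 in the EVI1 arrays and 8.61, 6.35 and 8.64 in the EGFP arrays, did not pass (2.21 ± 0.73, adjusted p = 0.138) but passed with the replicate number as a block (adjusted p = 0.0158). A probe set shared by the IRG genes 9930111J21Rik1 and 9930111J21Rik2 differed by 0.99 ± 0.26 and did not pass (adjusted p = 0.0716 over probe sets).

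Among 11 other large GTPases of the dynamin superfamily 3 rose, 1 fell and 7 did not pass. The shares over all genes were 9.06% up and 9.18% down. Mx1, an interferon-induced antiviral GTPase, was at 8.65, 6.95 and 8.27 in the EVI1 arrays and 6.48, 6.29 and 6.50 in the EGFP arrays (1.54 ± 0.37, adjusted p = 0.0235); with values under the olfactory receptor level raised to it, the difference was 0.97 and did not pass (adjusted p = 0.111). Nor did Mx1 pass without EVI1 replicate 1 (0.0616), EVI1 replicate 3 (0.109), EGFP replicate 1 (0.0551) or EGFP replicate 3 (0.0677), or when tested over all probe sets (0.0792). Its paralog Mx2, also induced by interferon, was at 8.16, 5.76 and 8.02 in the EVI1 arrays and 6.14, 5.93 and 6.13 in the EGFP arrays and did not pass (1.25 ± 0.55, adjusted p = 0.184), with EVI1 replicate 2 under every EGFP array. The membrane-shaping atlastins Atl1 (0.76 ± 0.16) and Atl3 (0.59 ± 0.14) rose, and Opa1, which fuses mitochondrial inner membranes, fell (-0.44 ± 0.11). Atl1 lay under the olfactory receptor level on all 3 EGFP arrays and on 2 EVI1 arrays. The dynamins Dnm1, Dnm2, Dnm1l and Dnm3 and the mitofusins Mfn1 and Mfn2, which are not known as interferon targets, did not pass either.

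No measured interferon gene passed the test. Of 11 measured ligands, by limma 0 rose and 0 fell, where 9.06% of all genes rose and 9.18% fell. Among the ligands 0 had an unadjusted p under 0.05, and the median log2 fold change was -0.048. Ifng, the strongest known inducer of the GTPases, was at 6.73, 6.55 and 7.06 in the EVI1 arrays and 6.33, 6.76 and 6.98 in the EGFP arrays (0.09 ± 0.19, adjusted p = 0.852). Ifnb1 was at 5.77, 5.39 and 6.05 in the EVI1 arrays and 5.91, 5.85 and 5.76 in the EGFP arrays (-0.10 ± 0.17, adjusted p = 0.783). Both lay under the olfactory receptor level on every array, as did the group means of 7 ligands in the EVI1 arrays and 8 in the EGFP arrays, where signal cannot be told from background. With the replicate block 1 ligand passed, Ifnk (0.69, adjusted p = 0.0461).

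Receptor chains rose modestly, with 4 of 6 higher and 2 not passing (median 0.61), where 9.06% of all genes rose. The type I chains Ifnar1 (0.73 ± 0.12, adjusted p = 0.00393) and Ifnar2 (0.62 ± 0.15), the lambda chain Ifnlr1 (0.61 ± 0.12) and its partner Il10rb (0.92 ± 0.19) rose. Ifnlr1 lay under the olfactory receptor level on 2 EGFP arrays. The interferon gamma chains did not pass, with -0.27 ± 0.14 for Ifngr1 and 0.58 ± 0.21 for Ifngr2, which passed with the replicate block (adjusted p = 0.0164). Of 15 kinases and transcription factors of the pathway 8 rose and 7 did not pass (median 0.57). Irf1 was at 10.53, 10.71 and 11.00 in the EVI1 arrays and 8.23, 8.84 and 8.23 in the EGFP arrays (2.31 ± 0.20, adjusted p = 0.000243). Unlike the GTPases, its EVI1 replicate 2 lay between the other EVI1 arrays.

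Stat3 (1.07 ± 0.11) and Irf2, an antagonist of Irf1 at shared elements (0.91 ± 0.12), also rose with EVI1 values close together. Stat2 was at 10.98, 10.23 and 11.21 in the EVI1 arrays and 9.31, 9.23 and 9.21 in the EGFP arrays (1.56 ± 0.23), and Irf9 (1.14 ± 0.16), Irf7 (1.41 ± 0.31), Jak2 (0.67 ± 0.13) and Batf2 (0.57 ± 0.14) completed the 8. Of 11 inhibitors of interferon signalling 2 rose, 2 fell and 7 did not pass, where 9.06% of all genes rose and 9.18% fell. The phosphatase Ptpn6 (0.81 ± 0.13) and Pias3, an inhibitor of Stat3 (0.51 ± 0.14), rose. The phosphatase Ptpn11 (-0.45 ± 0.10) and the corepressor Irf2bp1 (-0.38 ± 0.10) fell. Without EVI1 replicate 2 neither fall passed, where 2645 genes changed in all, against 3638 with it. Between same-numbered arrays 1 and 3, Ptpn11 (-0.35 and -0.54) and Irf2bp1 (-0.45 and -0.39) were still lower. The feedback inhibitors Socs1 (-0.01 ± 0.11) and Socs3 (-0.08 ± 0.10) did not pass. Usp18, an interferon-induced brake on the type I receptor, was at 10.33, 8.18 and 10.32 in the EVI1 arrays and 8.89, 7.93 and 8.78 in the EGFP arrays and did not pass either (1.08 ± 0.55, adjusted p = 0.258; 0.0260 with the replicate block).

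Antiviral genes typical of type I interferon rose together with the GTPases. Of 17 measured 14 rose and 3 did not pass, with a median of 1.45 and of 1.96 without EVI1 replicate 2. With the replicate block all 17 rose. Of all genes 9.06% rose without the block, and 4361 of 19937 genes changed in either direction with it. EVI1 replicate 2 was the lowest EVI1 array for 17 of 17, where it was lowest for 36.8% of all genes. It was short of the other EVI1 arrays by at least 0.5 for 14, as for 1.82% of all genes and 4.32% of the genes that rose. Ifit3, an RNA-binding partner of Ifit1, was at 10.77, 8.03 and 10.72 in the EVI1 arrays and 6.64, 6.84 and 6.04 in the EGFP arrays (3.34 ± 0.66, adjusted p = 0.00981). All 3 EGFP values of Ifit3 lay under the olfactory receptor level. Oasl2, of the oligoadenylate synthetase family, rose by 2.73 ± 0.30 and the RNA sensor Ddx58 (RIG-I) by 1.95 ± 0.17. Rsad2, the antiviral enzyme viperin, was at 12.10, 11.97 and 12.32 in the EVI1 arrays and 7.33, 6.98 and 7.14 in the EGFP arrays (4.98 ± 0.14, adjusted p = 4.23e-06), with little spread among the EVI1 arrays.

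Genes associated with interferon gamma were mixed, with 9 of 22 up, 2 down and 11 not passing (median 0.46). The shares over all genes were 9.06% up and 9.18% down. With the replicate block 12 were up and 3 down, where 4361 of 19937 genes changed in either direction. Cxcl9, a chemokine for T cells, was at 8.86, 8.24 and 9.22 in the EVI1 arrays and 6.19, 6.63 and 6.65 in the EGFP arrays (2.29 ± 0.24, adjusted p = 0.000612). All 3 EGFP values of Cxcl9 lay under the olfactory receptor level. Of the class I antigen processing genes, those that rose included the proteasome activator subunit Psme2 (1.16 ± 0.13), the immunoproteasome subunit Psmb9 (1.24 ± 0.27), the peptide transporter Tap1 (0.78 ± 0.19) and tapasin (Tapbp, 1.10 ± 0.17), while Psmb8 (0.36 ± 0.14), Psmb10 (0.60 ± 0.22) and B2m (0.16 ± 0.10) did not pass. Of these, Psmb10 passed with the block (adjusted p = 0.0230). The class II genes H2-Ab1 (-0.77 ± 0.18) and H2-Eb1 (-0.97 ± 0.28) fell, while H2-Aa (-0.67 ± 0.43), the class II invariant chain Cd74 (0.78 ± 0.25) and the class II regulator Ciita (-0.26 ± 0.12) did not pass. With the block H2-Aa passed as lower (adjusted p = 0.0314) and Cd74 as higher (0.00299). Neither Cd274, the ligand PD-L1 (-0.27 ± 0.19), nor Nos2, inducible nitric oxide synthase (-0.22 ± 0.10), passed in the unblocked fit, and for Nos2 the EVI1 values lay under the olfactory receptor level. EVI1 replicate 2 was short by at least 0.5 for 7 of these 22 genes, where it was for 1.82% of all genes.

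The 8 genes whose profile over the 6 arrays lay nearest to the mean profile of the 6 members were Gbp4, Gm12250, Xaf1, Cxcl9, Gbp9, Il18bp, Oasl2 and Asprv1. Profiles were differences from each gene's own EGFP mean, and likeness was the Euclidean distance, which was 0.288 for Gbp4, 0.409 for Gm12250, 0.481 for Xaf1 and 0.740 for Asprv1. The mean profile of the members was 2.57, 1.74 and 2.98 in the EVI1 arrays and 0.08, -0.28 and 0.20 in the EGFP arrays. The members' own distances from it, which include their own values, were 0.42 for Gbp3 and 1.88 for Irgm1 at the extremes, with Iigp1 at 1.73. Gbp4 and Gm12250 lay nearer to the mean profile than any of the 6 members. They were picked as the nearest of all genes outside the members, so the selection favours this. The distance also depends on the size of a difference, and the EGFP values of Gbp4 and Cxcl9 lay under the olfactory receptor level.

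Partners of the GBPs and IRGs rose in part. Of 14 inflammasome and cell death genes 6 rose, 1 fell and 7 did not pass (median 0.51), where 9.06% of all genes rose and 9.18% fell. The caspases Casp1 (1.40 ± 0.18) and Casp4 (caspase-11, 1.36 ± 0.13), the pore-forming protein Gsdmd (1.02 ± 0.14), the adaptor Pycard (0.59 ± 0.14) and Ninj1, which ruptures the membrane of dying cells (0.43 ± 0.12), rose. Il18, a cytokine cut by caspase-1, was at 11.33, 10.98 and 10.69 in the EVI1 arrays and 7.41, 6.05 and 6.17 in the EGFP arrays (4.45 ± 0.34, adjusted p = 0.000178). On 2 EGFP arrays Il18 lay under the olfactory receptor level. The sensor Nlrp3 fell (-0.80 ± 0.23, adjusted p = 0.0491). Without EVI1 replicate 2 no gene of this list passed as lower and 4 rose, where 2645 genes changed in all, against 3638 with it. Nlrp3 was still lower between same-numbered arrays 1 (-0.76) and 3 (-0.67).

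Of 18 autophagy and ubiquitin genes linked to GBP and IRG loading 12 rose and 6 did not pass (median 0.70). The share of all genes that rose was 9.06%. Ube2l6, the conjugating enzyme of the ubiquitin-like protein Isg15, was at 9.68, 10.11 and 10.66 in the EVI1 arrays and 7.10, 6.73 and 7.23 in the EGFP arrays (3.13 ± 0.24, adjusted p = 0.000188). The autophagy receptor Sqstm1 (1.28 ± 0.17) and the antibody receptor and ubiquitin ligase Trim21 (1.53 ± 0.21) rose. Among the proteins that in mice direct IRGs and GBPs to vacuoles, Atg5 (0.72 ± 0.11), Atg7 (0.55 ± 0.16) and Gabarapl2 (0.73 ± 0.21) rose, while Atg3, Atg12 and Atg16l1 did not pass. EVI1 replicate 2 was short by at least 0.5 for 0 of these 18 genes and for 2 of the 14 inflammasome genes. The shares were 1.82% of all genes and 4.32% of the genes that rose, so the count of 0 is near them.

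**Figure D4:**
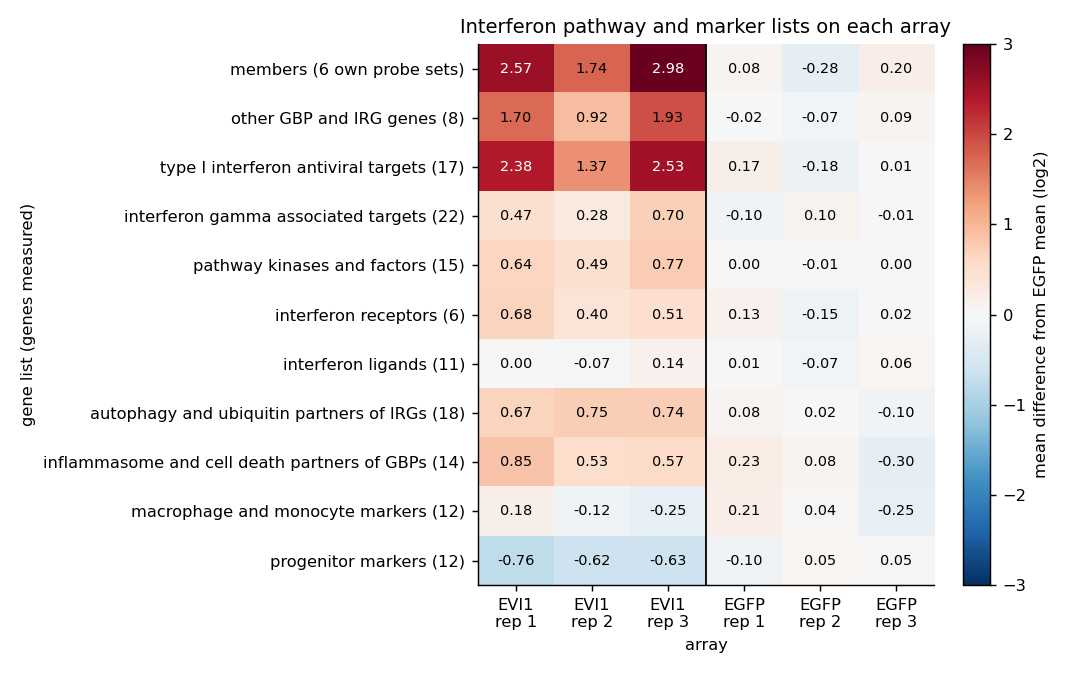
Mean difference from the EGFP mean (log2, colour and number) of each gene list (rows, with the number of genes measured) on each array (columns, EVI1 on the left). EVI1 replicate 2 is lower than the other EVI1 arrays for the GTPase members (1.74 against 2.57 and 2.98). The same holds for the other GBP and IRG genes and for the type I targets (1.37 against 2.38 and 2.53). It is also the lowest, by less, for the interferon gamma targets, pathway factors, receptors, ligands and inflammasome genes. It is not the lowest for the autophagy genes, the macrophage markers or the progenitor markers.

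Markers of other cells that the cultures could hold were read beside the GTPases. Of 12 macrophage and monocyte markers 3 rose, 2 fell and 7 did not pass (median -0.051), where 9.06% of all genes rose and 9.18% fell. Cd68, a lysosomal protein (1.16 ± 0.19), Mpeg1, perforin-2 (1.21 ± 0.21), and Mrc1, the mannose receptor (0.99 ± 0.23), rose. Csf1r, the receptor for macrophage growth factor (-1.16 ± 0.27), and Cd14, a lipopolysaccharide co-receptor (-0.85 ± 0.25), fell, and Adgre1 (-1.08 ± 0.37) and Itgam (-1.03 ± 0.34) did not pass. With the replicate block 5 fell, Adgre1 (adjusted p = 0.00233) and Itgam (0.00238) among them, where 4361 of 19937 genes changed in either direction. Without EVI1 replicate 2 no marker fell. The mean level of the list was 9.01, 8.71 and 8.58 in the EVI1 arrays and 9.04, 8.87 and 8.59 in the EGFP arrays, and the means of 3 markers lay under the olfactory receptor level in each group, with C1qc and Marco among them in both. EVI1 replicate 2 was short by at least 0.5 for 0 of the 12 markers, near the 1.82% of all genes. Because the markers moved in both directions, the mean of the list is no measure of macrophage number, which was not tested.

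Lymphocyte markers covered T and natural killer cells and also B cells (Cd79a, Ms4a1 and Pax5). By limma 0 of 9 rose and 0 fell, where 9.06% of all genes rose and 9.18% fell. Cd79a and Klrb1c were the 2 at an unadjusted p under 0.05. The group means of 7 of the 9 lay under the olfactory receptor level in both groups, and the mean level of the list was 6.05, 6.09 and 6.20 in the EVI1 arrays and 6.03, 6.05 and 6.12 in the EGFP arrays. With the replicate block 1 of them, Klrb1c, passed as lower (adjusted p = 0.0332), where 4361 of 19937 genes changed in either direction. Klrb1c lay under the olfactory receptor level on all 6 arrays. Of 8 dendritic cell markers 1 rose and 3 fell, near the shares over all genes for the rise. The integrin Itgax (-1.19 ± 0.17), the receptor Flt3 (-1.52 ± 0.23) and Batf3 (-0.36 ± 0.10) fell, and Ccr9 (0.82 ± 0.17) rose. Itgax lay under the olfactory receptor level on all 3 EVI1 arrays, and Ccr9 on 2 EGFP arrays. With the replicate block Batf3 did not pass (adjusted p = 0.0529). Of 8 endothelial and stromal markers 3 rose, namely the cadherin Cdh5 (2.61 ± 0.17) and the receptors Tek (2.49 ± 0.17) and Kdr (1.54 ± 0.32). All 3 EGFP values of Cdh5 and of Kdr lay under the olfactory receptor level. Pecam1 (-0.44 ± 0.14) and the collagens Col1a1 (0.05 ± 0.12) and Col3a1 (0.11 ± 0.13) did not pass. With the block Pecam1 passed as lower (adjusted p = 0.0251). In the endothelial and stromal list 0 markers fell. The mean level of that list was 8.04, 8.02 and 8.34 in the EVI1 arrays and 7.23, 7.42 and 7.38 in the EGFP arrays. The part of any of these cell types, or of the vector dose, which the labels do not give, in the values of the GTPases was not tested.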

How the data were processed

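Expression was measured on Affymetrix Mouse Gene ST arrays with amplified, biotin-labelled cDNA. The authors deposited log2 intensities made by RMA, per the submitters' processing notes; its version is not given in the sources used here. Deposited values were used without rescaling. A gene was represented by its brightest probe set with exactly 1 symbol in GEO's platform annotation, which gave 19937 genes; 1321 probe sets carried several symbols. EVI1 and EGFP arrays, grouped by their labels, were compared with limma 3.58.1 in R 4.3.3 (lmFit, eBayes, two-sided), with Benjamini-Hochberg adjustment over all genes (or all probe sets, for shared ones) and a threshold of 0.05. The fit was tested on simulated data. Arrays have no read depth, so their number, 3 a group, limits the precision. RMA also hides any change of total RNA per cell.

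The members, lists and tests were chosen with earlier results of these data known. Names came from a rule: all members and family relatives, up to 3 genes with the smallest p in each list, and the 8 nearest profiles. Other list genes that are named were chosen after their values had been seen. Deviations of same-numbered arrays from their group means correlated at r = 0.491, 0.269 and 0.197 for replicates 1, 2 and 3. The numbers were thus taken to pair the arrays, and a fit with the replicate number as a block was run beside the unblocked fit. Calls are from the unblocked fit unless the block is named. Some calls of list genes, mostly of genes that did not pass, differ with the block. Alternatives changed the filter on dim probe sets, the floor, the scaling, the probe-set rule, the variance model, array weights and the arrays used. Promoter sequences and gene types are from RefSeq (GRCm38.p6).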

Additional observations from a re-analysis of the deposited data

How the results depend on the processing

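The 6 members passed in every setting that kept their probe sets, as did the 3 shared probe sets, and the filter on the dimmer 50% of probe sets removed Iigp1. Their highest adjusted p over these settings was 0.0369, for the 6-gene probe set. The median of the members ran from 1.98 with the floor to 2.81 without EVI1 replicate 2, and from 2.26 to 2.81 when 1 array was left out. The replicate block gave 4361 changed genes, against 3638 without it, and changed no call among the members. Leaving out 1 array gave 2289 (EVI1 replicate 3) to 4098 (EGFP replicate 2) changed genes, and 2226 genes changed when every probe set was tested on its own and each gene was read by its smallest difference. Directions turned for the relatives Irgq and Irgc1, which had not passed the test. The floor replaced every value of Cd79a, Gbp2b, Irgc1 and Ms4a1. The -0.00030 it gave for each is thus the difference between the floors of the 2 groups, not a direction of these genes. Irgq was at -0.0011 after a further quantile normalisation and -0.0029 after centring, and from -0.038 to 0.14 when arrays were left out (-0.034 without EVI1 replicate 1, -0.0038 without EGFP replicate 3). Irgc1 ran from -0.0050 to 0.21 when arrays were left out; the cause was not tested. Background correction could not be repeated from summarised values. The signal of Gbp5, Gbp11, Iigp1 and the 6-gene probe set in EGFP arrays is too close to background to fix the size of their rise. The same holds for Gbp4, Gbp8, Gm4951, Mx1, Cxcl9, Ifit3, Il18, Cdh5, Kdr, Atl1, Ifnlr1 and Ccr9.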
